A study of Mus musculus with 59 samples.

Results

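Mouse embryonic stem cells (ESCs) lacking Zcchc8 were compared between 4 h and 8 h of Actinomycin D, to find which RNAs fell and which held in the second 4 h of a transcription block. The comparison used 4 libraries of the 59 in the series, 2 at 4 h and 2 at 8 h, and the other 8 libraries of the same decay experiment served for the shared estimate of spread and for comparison with the first 4 h and with control cells. Of 23974 genes in the decay table, 6952 had a mean normalised count of at least 10 over the 12 libraries and were tested. The study examined Zcchc8 in ESCs, oocytes and early embryos, and in its decay experiment measured total RNA in control and knockout (KO) ESCs. Both groups compared here were Zcchc8 KO ESCs derived from BDF1 blastocysts, exposed to Actinomycin D at 5 µg/ml for 4 h or for 8 h. The other groups were KO cells at 0 h and wild-type BDF1 ESCs, called control, at 0, 4 and 8 h. All groups shared the medium, which contained serum, LIF, CHIR99021 and PD0325901, and all received an ERCC spike-in and had ribosomal RNA removed before sequencing. The labels do not say which part of Zcchc8 was deleted, whether the KO was 1 clone, or whether the 2 replicates of a group came from separate cultures. The p-values therefore describe variation among these particular libraries, which may be technical.

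Zcchc8 is a zinc knuckle protein that joins the RNA-binding protein Rbm7 and the helicase Mtr4 (listed as Skiv2l2) in the nuclear exosome targeting complex, NEXT, which delivers short-lived nuclear transcripts to the RNA exosome. Actinomycin D intercalates into DNA and stops RNA synthesis, so the RNA that remains over time reflects how fast each transcript is degraded. Replication-dependent histone mRNAs are a special class among these transcripts: they end in a conserved stem-loop instead of a poly(A) tail, and in animal cells they are quickly degraded once DNA replication stops.

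One of the 2 genes called lower at 8 h, in calls that did not hold in every fit, was such a histone gene. Histone transcripts also had the lowest median of the large gene groups, so the stem-loops of 6 of them are printed here. They were read from GENCODE M21 transcripts on the GRCm38 build, each with 5 flanking bases on either side, on the transcript strand, 5′ to 3′. Capitals mark the 16-base stem-loop, found by a search for a 5′ stem GGNNCT, a loop TTTN and a 3′ stem AGNNCC in direct succession, with N for any base. Each lies in the 3′ UTR of a gene on chromosome 13.
Hist1h2bm: acaaaGGCTCTTTTCAGAGCCactaa
Hist1h4f: tcaaaGGCCCTTTTCAGGGCCaccca
Hist1h4c: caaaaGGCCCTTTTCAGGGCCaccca
Hist1h4d: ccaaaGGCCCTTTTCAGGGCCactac
Hist1h3e: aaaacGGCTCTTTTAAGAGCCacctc
Hist1h4i: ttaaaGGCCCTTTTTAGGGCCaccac
The printed stretch of Hist1h2bm is chr13:21722501-21722526 on the plus strand and that of Hist1h4d is chr13:23581945-23581970, also on the plus strand. On the minus strand lie those of Hist1h4f at chr13:23551286-23551311, Hist1h4c at chr13:23698084-23698109, Hist1h3e at chr13:23561898-23561923 and Hist1h4i at chr13:22040961-22040986. The first 5 belong to transcripts whose 8 h values lay below their 4 h values, and the last to Hist1h4i, which held. In these transcript models 33 to 770 bases follow the 16-base stem-loop. The motif was present in the matched transcript of 33 of 51 tested histone genes (64.7%) and of 13 of 6832 other tested genes (0.190%).

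The libraries were shallow. The 12 libraries held 465324 to 1364523 reads assigned to genes, with 1364523 and 930796 in the KO 4 h libraries and 954312 and 601688 in the KO 8 h libraries. A single read was worth 0.561 and 0.969 normalised counts at KO 4 h, and 0.637 and 1.26 at KO 8 h. Of 12 ESC markers, 10 were tested in the KO cells and Nanog and Esrrb were listed at 0 in all 4 libraries. Their summed value was 1770 and 1871 at 4 h and 1347 and 1063 at 8 h. Fibroblast markers were also present, with 11 of 15 tested, Pdgfrb and Postn listed at 0, and summed values of 15887 and 17127 at 4 h and 12565 and 9578 at 8 h. Of 7 neuroectoderm markers 3 were tested, with summed values of 228 and 312 at 4 h and 193 and 137 at 8 h. Of 8 trophectoderm markers 2 were tested, and of 8 primitive endoderm markers none was. Some genes that every cell uses, such as Gapdh (2.80 and 9.69 at KO 4 h), were listed near 0, so a value at 0 in this table does not show that a gene was silent.

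The targeted gene gave the following values. Zcchc8 was at 25.3 and 5.29 at KO 0 h, 21.3 and 13.6 at KO 4 h and 9.56 and 3.78 at KO 8 h, and its late difference was -1.34 (adjusted p = 0.481, limma). Control cells had 59.3 and 77.5 at 0 h, 32.7 and 24.7 at 4 h and 7.57 and 11.3 at 8 h. The KO libraries lay below the control libraries at 0 h and 4 h, but at 8 h the genotypes overlapped, so at that time the gene does not check the labels. Reads from parts of the locus outside a deletion would be counted as well.

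KO 8 h replicate 2 stood apart from the other libraries. Its correlation over the tested genes with the other 3 KO libraries at 4 and 8 h was 0.866 to 0.872, against 0.926 to 0.940 among those 3. The difference between the KO 8 h replicates exceeded counting noise by a chi-square of 13.3 per degree of freedom, against 3.50 to 4.19 in the other 5 groups. Noncoding genes, those with only NR accessions in RefSeq, took 16.2% of its summed value over the tested genes without the ribosomal RNA precursor Rn45s. Their share was 9.23% to 13.3% in the other 11 libraries. Ribosomal protein genes took 8.61% of the same sum in KO 8 h replicate 2, against 12.0% in KO 8 h replicate 1. The medians of the gene lists below are therefore also given for each 8 h library alone, as the log2 difference from the mean of both KO 4 h libraries. For all tested genes these medians were -0.49 in replicate 1 and -0.41 in replicate 2.

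**Figure D1:**
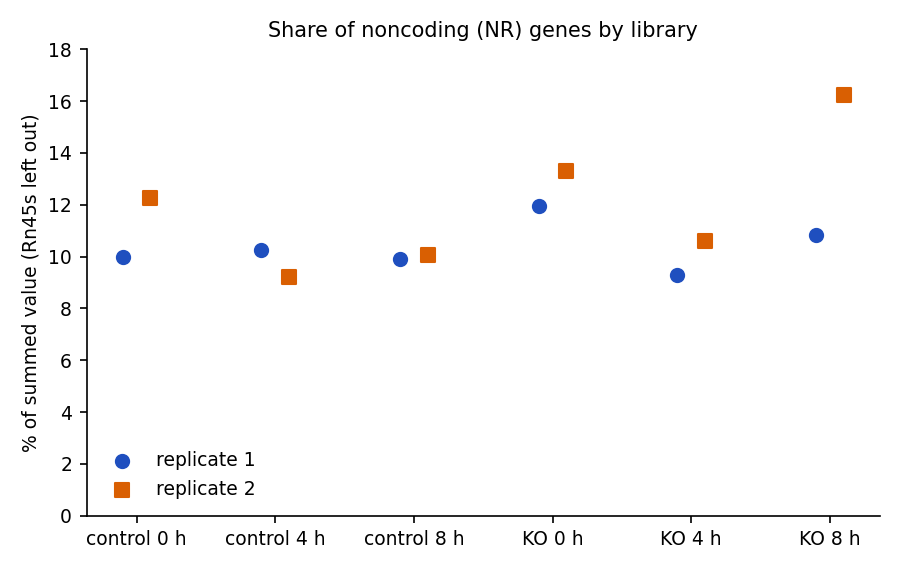
Share of the summed normalised count of the tested genes held by those with only NR accessions, Rn45s left out. Each of the 12 libraries is shown (circle, replicate 1, and square, replicate 2). KO 8 h replicate 2 is at 16.2%, and the other 11 libraries lie between 9.23% and 13.3%.

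The KO cells held less RNA at 8 h than at 4 h on the deposited scale, and the loss was spread over most genes. The median tested gene changed by -0.45 on the log2(normalised count + 1) scale, and 5602 of the 6952 genes (80.6%) lay below 0. The summed value of all genes was 764858 and 901637 at 4 h and 608326 and 757779 at 8 h. Its mean at 8 h was 683052 ± 105679 (SD, n = 2), which was 82.0% of the 4 h mean of 833248 ± 96717 (SD, n = 2), and both 8 h libraries lay below both 4 h libraries. An exact permutation test, two-sided, gave p = 0.333, the smallest that 2 against 2 allows. The fall of the median gene depended on the scale: after TMM scaling, which sets the bulk of genes to no change, it was -0.00. In bulk RNA, fewer cells of a type and less RNA per cell cannot be told apart.

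Against this broad decline, 2 genes were called lower and none higher, in limma on the log2 scale with Benjamini-Hochberg adjustment over all 6952 genes. The test used a spread pooled over all 12 libraries. With only KO 4 h and KO 8 h in the limma fit, both genes had an adjusted p of 0.378 and were not called. The 2 are 0.0288% of the genes tested, and the share called higher was 0%. At an unadjusted p under 0.05, limma had 719 genes lower and 7 higher. On the TMM scale it called 0 genes in either direction, with 275 lower and 258 higher at an unadjusted p under 0.05. edgeR on the recovered reads called 0 genes, with 657 lower and 19 higher at an unadjusted p under 0.05, and DESeq2 called 0 lower and 1 higher. The 2 groups did not overlap in 3315 genes that were lower at 8 h (47.7%) and in 204 that were higher (2.93%).

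Hist1h2bm, which encodes an H2B core histone, stood at 30.8 and 29.1 at 4 h and at 6.37 and 1.26 at 8 h. Both 8 h values lay well below both 4 h values, and it fell by 2.92 on the log2 scale (SE 0.484, adjusted p = 0.00198, limma). Cep192, a scaffold protein that builds the pericentriolar material of mitotic centrosomes, stood at 47.1 and 58.1 at 4 h and at 13.4 and 2.52 at 8 h. Its groups did not overlap either, and it fell by 2.91 (SE 0.547, adjusted p = 0.0117, limma). Both values in KO 8 h replicate 2 rested on few reads, 1 for Hist1h2bm and 2 for Cep192. Without that library the changes were -2.07 (adjusted p = 0.233) and -1.89 (adjusted p = 0.494), and 0 genes were called. Without KO 4 h replicate 1, 0 genes were called, and without KO 4 h replicate 2 only Hist1h2bm was (adjusted p = 0.0414). Both genes are below the level of 100 set for named genes and were picked out after their values were seen.

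**Figure D2:**
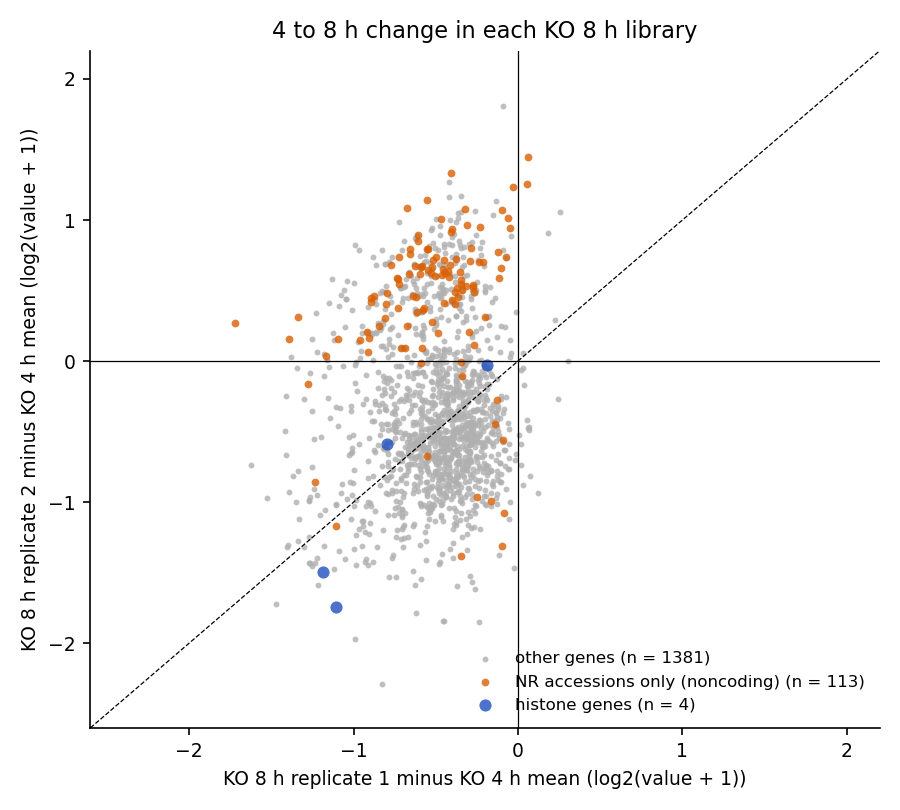
Change from 4 to 8 h in each KO 8 h library for the 1498 genes with a mean of at least 100 at KO 4 h: replicate 1 (x axis) and replicate 2 (y axis), each minus the KO 4 h mean on the log2(normalised count + 1) scale. The dashed line marks equal change; nearly all genes lie left of 0, while the 113 noncoding genes (orange) lie mostly above 0 in replicate 2, with a median of 0.54 against -0.49 in replicate 1.

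Among more abundant transcripts no fall passed the test, and the 5 with the smallest p are given as values. Poldip3, which encodes a partner of a DNA polymerase subunit that also takes part in mRNA export, was at 102 and 138 at 4 h and at 42.1 and 35.3 at 8 h. Its log2 difference was -1.60 (SE 0.430, adjusted p = 0.154, limma). Setd5, a chromatin protein with a SET domain, went from 135 and 158 to 81.6 and 29.0, a difference of -1.56 (adjusted p = 0.154). In both genes every 8 h value lay below every 4 h value, by a wide margin in Poldip3. Cdc42bpb, a kinase that acts downstream of the small GTPase Cdc42, was at 211 and 256, then at 99.4 and 76.8 (-1.40, adjusted p = 0.154). Apc, the scaffold of the complex that marks beta-catenin for destruction, was at 118 and 115, then at 58.0 and 29.0 (-1.48, adjusted p = 0.154). Hist1h4d, an H4 histone gene, was at 117 and 108, then at 51.6 and 32.7 (-1.43, adjusted p = 0.179). All 5 kept 32.3% to 37.8% of their 4 h mean. Genes with overlapping groups were not eligible, and each of these 5 reached the level of 100 only through its 4 h mean, so neither the gap nor its size is support for a fall.

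The transcripts at the other end were fewer and closer to their 4 h values. Ubtf, which encodes a transcription factor of RNA polymerase I, was at 63.3 and 58.1, then at 73.3 and 141 (log2 difference 0.74, adjusted p = 0.548, limma). It had the smallest p among genes higher at 8 h with a mean of at least 100 and no overlap. Rbpj, the DNA-binding partner of Notch, was at 127 and 138, then at 157 and 276 (0.65, adjusted p = 0.562). In both genes the higher 8 h value came from replicate 2. Gm3435 was at 70.6 and 68.8, then at 92.4 and 116 (0.56), and the noncoding A130077B15Rik was at 81.3 and 71.7, then at 88.0 and 121 (0.43). Cyb5b, a cytochrome b5 of the outer mitochondrial membrane, was at 175 and 140, then at 183 and 192 (0.26). None of the 5 differences passed the test. Here too only genes without overlap were eligible, and Ubtf, Gm3435 and A130077B15Rik reached the level of 100 only through their 8 h mean, so the values are a description.

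**Figure D3:**
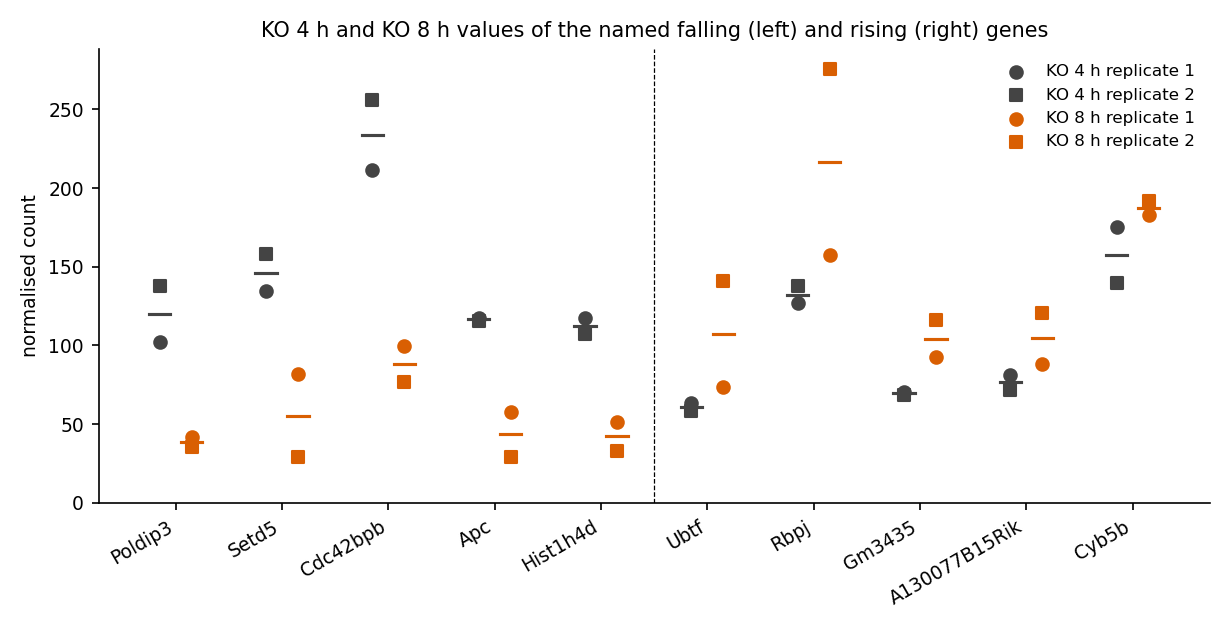
Normalised count in each KO 4 h (grey) and KO 8 h (orange) library for the 5 lower and the 5 higher genes with the smallest p among those with a mean of at least 100 and no overlap; bars are means of 2. All lower genes kept under 40% of the 4 h mean (32.3% to 37.8%), whereas in Ubtf and Rbpj replicate 2 lay far above replicate 1 at 8 h.

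Replication-dependent histone genes encode proteins that package newly made DNA. In the KO cells the summed value of the tested ones went from 27734 and 29740 at 0 h to 1842 and 2178 at 4 h. It was 1029 and 911 at 8 h, with no overlap between 4 h and 8 h. Of 67 histone genes in the table, 51 were tested, 1 was called lower and none higher, and 36 had 8 h values all below their 4 h values (70.6%, against 47.7% of all genes). Their median late change was -1.43, against -0.45 for all genes, and on the TMM scale it was -0.97 against -0.00. The median was -1.07 in KO 8 h replicate 1 and -1.46 in replicate 2, so it stood below that of all genes in both libraries. In control cells the same genes had a median late change of -1.77, and their median change in the first 4 h of KO cells was -4.47.

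The histone classes had medians between -1.55 and -0.69, and differences between classes were not tested. The median late change was -0.69 over 5 tested genes of linker histone H1, with -0.87 in replicate 1 and -0.58 in replicate 2. It was -1.55 over 13 H2A genes (-1.35 and -1.43 in the 2 libraries), -1.46 over 12 H2B genes (-0.99 and -1.52), -1.20 over 10 H3 genes (-0.98 and -1.29) and -1.46 over 11 H4 genes (-1.11 and -2.02). Hist1h4c was at 86.9 and 68.8 at 4 h and at 31.9 and 10.1 at 8 h (-2.04, adjusted p = 0.0648, limma). Hist1h3e was at 46.5 in both 4 h libraries and at 13.4 and 10.1 at 8 h (-1.91, adjusted p = 0.0648). Hist1h4f was at 30.3 and 43.6, then at 11.5 in replicate 1 and listed at 0 in replicate 2 (-3.40, adjusted p = 0.0648). In these 3 genes all 8 h values lay below the 4 h values, and the changes did not pass the threshold. They were named for a small p, so the gap is no support for a fall. The 33 histone transcripts with the stem-loop motif had a median late change of -1.46, and the 18 in which these letters were not found had -1.28. These 18 may still have a stem-loop, so the medians do not compare histone mRNAs with and without one. Histone genes are near-identical copies, so reads shared between copies could be split or lost in the authors' counting, and single-gene values are uncertain.

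Hist1h4i, another H4 gene, held, and it was not the only histone gene without a fall. Of the 51 tested, 46 lay below the 4 h mean in KO 8 h replicate 1 and 47 in replicate 2. The highest late change among them was 0.65. Hist1h4i was at 217 and 290 at 4 h and at 220 and 246 at 8 h, so the groups overlapped. Its log2 difference was -0.11 (SE 0.399, adjusted p = 0.928, limma). The 2 KO 8 h libraries were alike, at -0.19 and -0.03 from the 4 h mean. In the first 4 h it had gone from 495 and 518 to the same 4 h values, a difference of -1.01 (adjusted p = 0.080). In control cells it stood at 213 and 255 at 0 h, at 10.2 and 12.4 at 4 h and at 11.3 and 8.58 at 8 h. The level in KO cells at 8 h thus lay above that in control cells at 4 h and at 8 h in every library. The late change itself was near 0 in both genotypes, -0.11 in KO and -0.17 in control. Hist1h4i carries the stem-loop motif, as do Hist1h4c, Hist1h4d and Hist1h4f printed above, while in the matched transcripts of the H4 genes Hist1h4a and Hist1h4k these letters were not found.

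**Figure D4:**
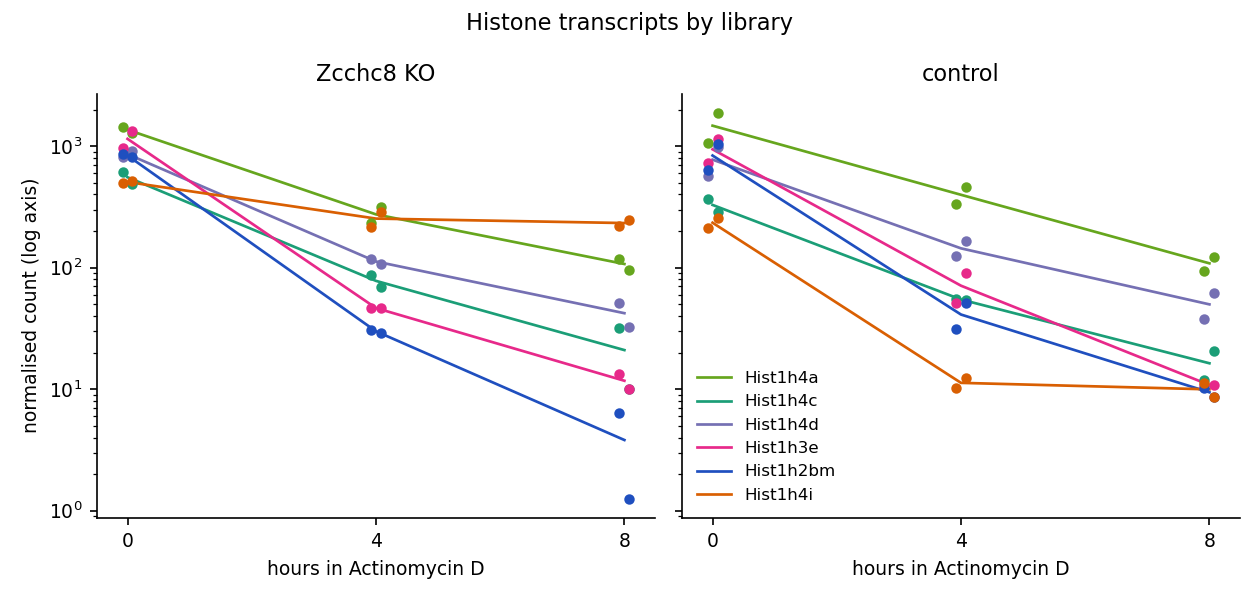
Normalised counts (log axis) of 6 histone genes against hours in Actinomycin D in KO (left) and control (right) cells; points are libraries and lines join the means of 2. In KO cells Hist1h2bm ended at 6.37 and 1.26 while Hist1h4i stayed at 220 and 246; in control cells Hist1h4i was at 8.58 to 12.4 from 4 h on.

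Noncoding genes separated the 2 KO 8 h libraries. Of 363 tested genes with only NR accessions, 312 lay below the 4 h mean in replicate 1, with a median of -0.46, but 83 did so in replicate 2, with a median of 0.48. Genes with only NM accessions, 6555 in number, had medians of -0.49 and -0.45. In noncoding genes 44 of 363 (12.1%) were lower without overlap, against 49.8% of the NM genes, and their median late change was -0.00 against -0.47. The difference between the classes was thus seen with replicate 2 and not with replicate 1 alone. The split was present in noncoding genes whose exons overlap a gene on the other strand and in the remaining ones. The remaining ones include genes whose symbol was not found in the annotation, so their overlap was not checked. The medians were -0.51 in replicate 1 and 0.51 in replicate 2 over the 215 noncoding genes with such an overlap. They were -0.40 and 0.43 over the 148 with none found. Among NM genes the medians stayed below 0 in both libraries. They were -0.50 and -0.24 over the 2223 with an overlap and -0.48 and -0.53 over the 4332 with none found, which also include unchecked genes. The sources used here do not say whether the counting used strand, so reads from overlapping genes on opposite strands may not be separated. Replicate 2 was also the shallowest of the 4 libraries, with 601688 reads, and the part of depth in the split was not tested.

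The most abundant transcripts at KO 4 h, ranked without correction for length, also differed between the KO 8 h libraries. The noncoding 4930470H14Rik was at 9095 and 12088 at 4 h and at 10249 and 24687 at 8 h (0.60, adjusted p = 0.568, limma), and without replicate 2 its difference was -0.03. Gm17644, also noncoding, was at 4759 and 5910, then at 5523 and 14463 (0.75, adjusted p = 0.503). In both, replicate 1 lay within the 4 h range and replicate 2 was far above it. Rmrp, the RNA component of an endonuclease that processes ribosomal RNA, did the opposite, at 6189 and 9674, then at 7247 and 3125 (-0.70, adjusted p = 0.521). Rn45s, the ribosomal RNA precursor made by RNA polymerase I, was at 5347 and 7151, then at 2622 and 3409 (-1.05, adjusted p = 0.332), so both 8 h values lay below the 4 h values and 48.3% of the mean remained.

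The protein-coding genes among the 10 most abundant lay between -0.60 and -0.11, and none passed the test. Their late differences were -0.60 for the type I collagen gene Col1a1, -0.39 for the elongation factor Eef1a1, -0.44 for the chaperone Hsp90ab1, -0.48 for cytoplasmic actin Actb, -0.11 for the RNA-binding protein Ybx1 and -0.29 for the nuclear protein Ptma. On the TMM scale Eef1a1 (0.07), Hsp90ab1 (0.03), Ybx1 (0.36) and Ptma (0.18) had the opposite sign. Among 126 genes above 1000 at KO 4 h, 1 was more than 2-fold lower at 8 h. Of the 1372 genes between 100 and 1000, 72 were that much lower (5.25%), and of the 4804 between 10 and 100, 910 were (18.9%).

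Genes of the translation machinery had no called member, and their lists had medians between -0.66 and -0.46, against -0.45 for all genes. Of 85 cytosolic ribosomal protein genes 69 were tested, and 65 had 8 h values all below their 4 h values (94.2%, against 47.7% of all genes). The share without overlap also differs with level: it was 68.9% over the 1374 NM genes with a mean of at least 100 at KO 4 h. The shares of this list and of all lists below are set against 47.7% without matching for level, so a higher share is not by itself a trait of a list. The median late change of the ribosomal protein genes was -0.46, with -0.34 in replicate 1 and -0.55 in replicate 2. Rps15a, a small-subunit protein, was at 245 and 224 at 4 h and at 133 and 132 at 8 h (-0.82, adjusted p = 0.442, limma). Rplp1, a ribosomal stalk protein, was at 1040 and 1051, then at 806 and 500 (-0.72, adjusted p = 0.488). These transcripts had shown a median change of 0.02 in the first 4 h. Of 39 tested translation factor genes 33 were lower without overlap (84.6%, against 47.7% of all genes), with a median of -0.58, and of -0.48 and -0.63 in the 2 libraries. Eif3g, a subunit of initiation factor eIF3, was at 239 and 375, then at 119 and 137 (-1.23, adjusted p = 0.247). All 13 tested aminoacyl-tRNA synthetase genes were lower without overlap (100%, against 47.7% of all genes), with a median of -0.65, and of -0.55 and -0.82 in the 2 libraries. Among them was Iars, which charges the isoleucine tRNA, at 220 and 225, then at 147 and 108 (-0.81). Of 32 ribosome biogenesis genes 26 were lower without overlap (81.3%) and 2 higher, against 47.7% and 2.93% of all genes. Their median was -0.66, with -0.57 in replicate 1 and -0.60 in replicate 2. Nop56, a protein of the snoRNPs that methylate ribosomal RNA, was at 276 and 342, then at 155 in both libraries (-0.98, adjusted p = 0.332).

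Mitochondrial genes encoded in the nucleus were similar or somewhat lower. The 63 tested mitochondrial ribosomal protein genes had a median of -0.79, with -0.55 in replicate 1 and -0.73 in replicate 2, and 40 were lower (63.5%, against 47.7% of all genes) and 1 higher without overlap. Mrpl12, at 93.0 and 106 at 4 h and 46.5 and 37.8 at 8 h (-1.22, adjusted p = 0.297, limma), was among them. The 68 respiratory chain genes had a median of -0.51, with -0.36 in replicate 1 and -0.59 in replicate 2. Ndufv1, a flavoprotein of complex I, was at 94.7 and 92.0, then at 42.7 and 31.5 (-1.32, adjusted p = 0.272). No gene of either group was called. The 34 proteasome subunit genes had a median of -0.58, with -0.48 and -0.62 in the 2 libraries, and 26 were lower without overlap (76.5%, against 47.7% of all genes). Psmd12, a subunit of the regulatory particle, was at 83.5 and 91.1, then at 47.2 and 31.5 (-1.16, adjusted p = 0.371).

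No cell division gene on the lists was called, although several were low at 8 h. The 18 mitosis genes had a median of -0.67, with -0.54 and -0.84 in the 2 libraries, and 12 were lower without overlap (66.7%, against 47.7% of all genes). The 23 DNA replication genes had a median of -0.61, with -0.45 and -0.83 in the 2 libraries, and 16 were lower without overlap (69.6%, against the same 47.7%). Kif11, the kinesin that separates spindle poles, was at 57.7 and 80.4 at 4 h and at 30.0 and 6.30 at 8 h (-2.20, adjusted p = 0.0847, limma). Plk1, a mitotic kinase, was at 57.2 and 54.2, then at 18.5 and 25.2 (-1.33, adjusted p = 0.308). Cdt1, which licenses replication origins, was at 39.8 and 38.7, then at 14.7 and 20.2 (-1.15, adjusted p = 0.396). In each of these genes all 8 h values lay below the 4 h values, but they were named for a small p, so the gap is no support for a fall. The 17 nucleoporin genes had a median of -0.69, with -0.55 and -0.94 in the 2 libraries, and 14 were lower without overlap (82.4%, against 47.7% of all genes). The 13 p53 target genes had a median of -0.71, which was -0.43 in replicate 1 and -1.04 in replicate 2. Phlda3, a p53-induced repressor of Akt, was at 138 and 144, then at 58.0 and 51.6 (-1.35, adjusted p = 0.235).

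Of 25 tested pluripotency genes, 13 were called lower in the first 4 h and none in the second. Their median change was -1.45 in the first 4 h and -0.44 in the second, with -0.39 in replicate 1 and -0.50 in replicate 2. In the second interval 14 were lower (56%, against 47.7% of all genes) and 1 higher without overlap. Pou5f1, the Oct4 gene, was at 258 and 303 at 0 h, at 242 and 266 at 4 h and at 193 and 103 at 8 h (-0.84, adjusted p = 0.450, limma). Sall4, a zinc finger factor of pluripotent cells, was at 107 and 78.5, then at 45.3 and 30.2 (-1.29, adjusted p = 0.251). Of 27 immediate early and other inducible genes, 8 were lower (29.6%) and 2 higher without overlap, against 47.7% and 2.93% of all genes. The median was -0.85 in replicate 1 and -0.06 in replicate 2. Ctgf, a matricellular target of YAP, was at 407 and 505, then at 215 and 247 (-0.97, adjusted p = 0.374). The 95 tested zinc finger (Zfp) genes had medians of -0.52 and -0.15 in the 2 libraries, with 34 lower (35.8%) and 7 higher without overlap, against 47.7% and 2.93% of all genes. These last 2 groups, like noncoding genes, were higher in replicate 2. Fibroblast markers had a median of -0.59 (-0.38 and -0.80 in the 2 libraries) and ESC markers one of -0.63 (-0.60 and -0.78). The part of either cell type in the late change was not tested.

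RNAs of the nucleus did not behave as 1 group. The 8 tested nuclear long noncoding RNAs had a median of -0.04, with -0.06 in replicate 1 and -0.08 in replicate 2. Malat1, a nuclear speckle RNA, was at 3208 and 3819 at 4 h and at 3176 and 2567 at 8 h (-0.29, adjusted p = 0.746, limma). The 8 tested snoRNA and scaRNA genes, of 114 in the table, had medians of -0.36 in replicate 1 and -1.84 in replicate 2, so their low average rested on replicate 2. Snord22, a box C/D snoRNA, was at 16.8 and 11.6, then at 8.92 and 2.52 (-1.34, adjusted p = 0.572). Rpph1, the RNA of RNase P, was at 2730 and 3695, then at 2501 and 1218 (-0.86, adjusted p = 0.404).

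**Figure D5:**
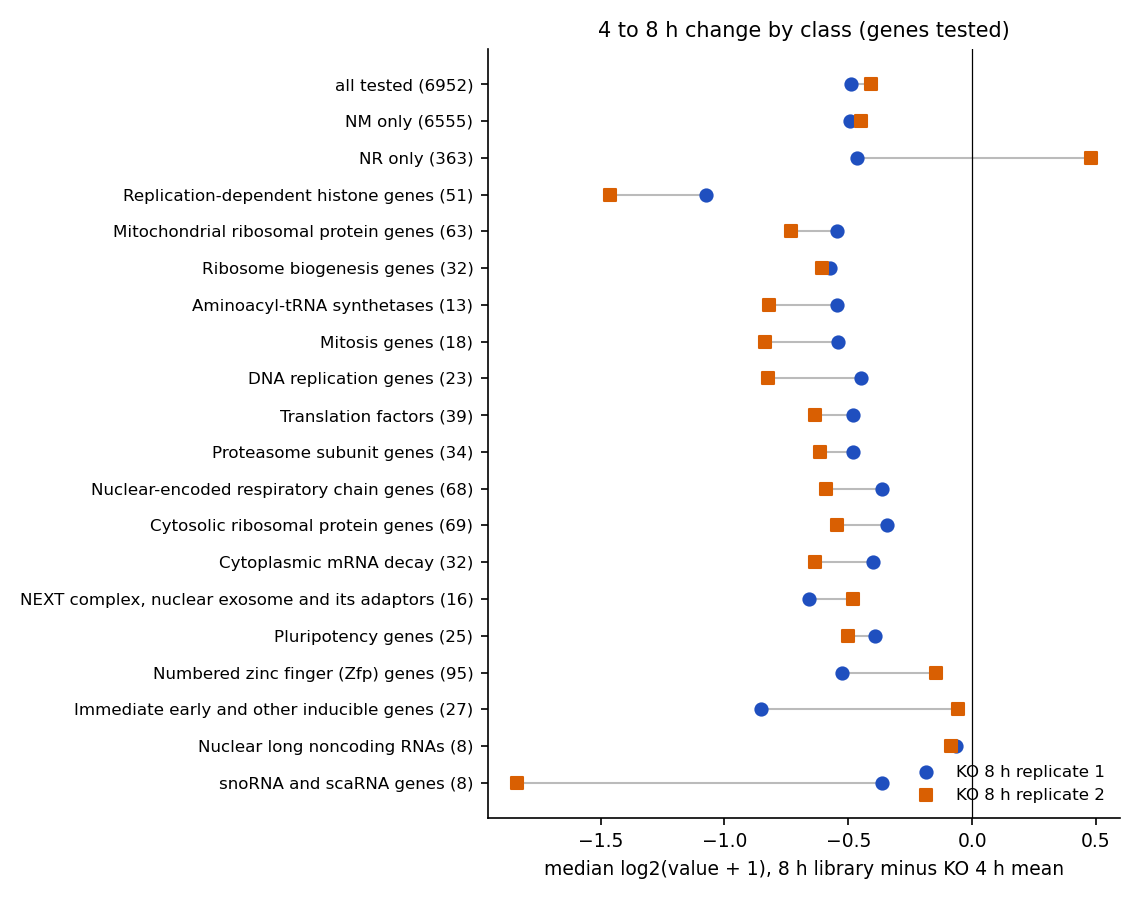
Median log2 difference from the KO 4 h mean in KO 8 h replicate 1 (circles) and replicate 2 (squares) for all tested genes and 19 classes, with the number of tested genes in brackets. Histone genes lie at -1.07 and -1.46; genes with only NR accessions lie at -0.46 and 0.48, and snoRNA genes at -0.36 and -1.84.

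The partners of Zcchc8 and the wider decay machinery had no called gene. Skiv2l2 was at 151 and 145, then at 61.2 and 140 (-0.67, adjusted p = 0.548, limma), and Rbm7 was listed at 0 in all 12 libraries. Of 16 tested genes of NEXT, the nuclear exosome and its adaptors, 10 were lower without overlap (62.5%, against 47.7% of all genes) and none was called. The median was -0.54, with -0.66 in replicate 1 and -0.48 in replicate 2. Exosc9, an exosome core subunit, was at 327 and 464, then at 126 and 233 (-1.18, adjusted p = 0.258). The 32 genes of cytoplasmic mRNA decay had a median of -0.45, with -0.40 and -0.63 in the 2 libraries. Skiv2l, the helicase of the Ski complex, was at 60.0 and 81.4, then at 30.0 and 17.6 (-1.56, adjusted p = 0.228). The 6 tested Integrator genes, whose complex cleaves nascent snRNA, had medians of -0.21 in replicate 1 and 0.58 in replicate 2.

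Whether KO and control cells differed in the second 4 h was tested as the difference of the 2 changes, which share no library. The median gene lost less in KO than in control, -0.45 against -0.79 on the deposited scale, and the median difference was 0.32, but on the TMM scale it was -0.01. No gene was called in either direction by limma (0%), with 40 lower and 348 higher at an unadjusted p under 0.05. edgeR called 2 genes higher and DESeq2 called 1. In control cells alone 322 genes were called lower (4.63%), and 8 on the TMM scale (0.115%). A call in control and none in KO does not by itself show a difference. Among higher values with a mean of at least 100 in a group compared, Rptn, an epidermal matrix protein, had the smallest p. Its values were 84.1 and 99.8 at KO 4 h and 79.7 and 222 at KO 8 h. In control they were 101 and 130, then 23.2 and 48.8 (difference 2.27, adjusted p = 0.875, limma). Ubxn8 (1.96) and Angpt2 (1.95) followed, also with their high value in KO 8 h replicate 2. S100a6 (-1.46), Scarf2 (-1.12) and Cd248 had the smallest p among lower values at the same level.

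Across genes, late changes in KO and control were weakly related, and this too depended on the library. Over the 1498 genes above 100 at KO 4 h, Pearson's r between the control late change and the change in KO 8 h replicate 1 was 0.404, and with replicate 2 it was -0.153. Over all 6952 tested genes these values were 0.133 and 0.0368, so the sign with replicate 2 turned with the set of genes. The points share the KO 4 h or control 4 h mean of each change and the sequence of each transcript, and genes are not independent replicates. The difference between replicate 2 and replicate 1 had r = -0.497 with the change from 0 to 4 h in KO and -0.349 with that in control, both over the 1498 genes. Over all tested genes the values were closer to 0, at -0.199 and -0.160.

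The first and second 4 h differed in pace for 40 genes (0.575%), all with a less negative change in the second interval, and for none in the other direction (0%). By limma 515 genes were higher and 30 lower at an unadjusted p under 0.05, and edgeR on the authors' factors called 0 lower and DESeq2 5 lower. On the TMM scale 43 genes were called higher (0.619%), of which 30 were among the 40. The intervals share the KO 4 h libraries, and 998 genes were called lower (14.4%) and 2 higher (0.0288%) in the first. All 40 had been called lower in the first interval, with changes of -6.20 to -2.28, and 22 had a late change above 0. Low values at KO 4 h lower the first change and raise the second, so the direction of these calls was partly set in advance. Of the 40, 12 were histone genes and 6 had only NR accessions, and 17 had under 50 reads over both KO 4 h libraries. Without KO 4 h replicate 2 the count was 5, and without KO 4 h replicate 1 it was 9. Leaving out KO 0 h replicate 1 gave 13 and KO 0 h replicate 2 gave 10. Counts of 108 and 106 followed without control 0 h replicate 1 or 2, of 22 and 24 without control 4 h replicate 1 or 2, and of 100 without KO 8 h replicate 1.

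The largest of these differences lay in genes near the detection limit after 4 h. Plk2, a stress-induced polo-like kinase, went from 204 and 201 at 0 h to 5.61 and 0.969 at 4 h and 5.10 and 10.1 at 8 h (difference of changes 7.01, adjusted p = 0.00227, limma). Mir292b, a microRNA gene of a cluster that is highly expressed in ESCs, went from 135 and 97.0 to 1.12 and 0.969, then to 0.637 and 7.56 (6.69, adjusted p = 0.0270). Nlrp12, a gene of the NLR family, went from 286 and 443 to 5.61 and 4.84, then to 1.91 and 8.82 (5.63, adjusted p = 0.00647). In each, the 4 h and 8 h values rested on 10 reads or fewer per library. The histone genes Hist1h3h (5.11, adjusted p = 0.0430) and Hist1h3g (5.00, adjusted p = 0.0118) followed. Rn45s, still well counted, was also called: 234828 and 193438 at 0 h fell to 5347 and 7151 at 4 h, a first change of -5.11, and the difference of changes was 4.06 (adjusted p = 0.000605). No gene had a called difference in the other direction. Among genes there with a mean of at least 100 in a group compared, Cox5b (-1.61), Itm2c (-1.79) and Mtch1 (-1.49) had the smallest p.

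Most features of gene structure showed little relation to the late change. Over 5 equal groups of coding genes by transcript length, 3′ UTR length or GC content, late medians ran from -0.54 to -0.43. Exon overlap with a gene on the other strand went with a late median of -0.33, against -0.52 where none was found. Genes whose symbol was not in the annotation were counted with the latter. The medians of these 2 classes were -0.50 and -0.48 in KO 8 h replicate 1, and -0.15 and -0.52 in replicate 2. Of the tested genes 6883 matched a GENCODE M21 transcript, and 6483 were coding with a 3′ UTR. Genes without the destabilising pentamer ATTTA in the 3′ UTR had a median late change of -0.47, those with 1 had -0.46, those with 2 to 3 had -0.48 and those with 4 or more had -0.49. In the first 4 h the medians of the same classes ran from -0.58 to -0.70. The 175 coding genes with 1 exon had a late median of -0.58 and a first-interval median of -1.73. Late medians of genes with more exons were -0.43 to -0.51. Histone genes were not left out of these classes. Over the 51 tested histone genes the late and first-interval medians were -1.43 and -4.47, and their part in the 1-exon values was not tested. The genes were also ranked by their 0 to 4 h change in control cells and cut into 5 equal groups. From the fastest lost to the most stable, the KO late medians were -0.38, -0.48, -0.46, -0.44 and -0.48. These medians did not follow the order of early loss in control cells. They average both KO 8 h libraries and were not taken for each library, so an order present in only 1 library would not be seen.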

How the data were processed

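Total RNA depleted of ribosomal RNA was sequenced in 12 Actinomycin D libraries. Per the submitters' processing notes, TopHat2 2.1.1, HTSeq 0.6.0, DESeq2 and the mm9 build were used; alignment settings, strand and the role of the ERCC spike-in in the scaling are not stated in these sources. The deposited table holds the authors' normalised counts, a signal per RefSeq transcript: gene counts divided by a size factor per library. Of 33896 rows, 978 repeats were dropped and the remaining 32918 transcripts were summed to 23974 genes. All values were whole multiples of 1 read (100%, tolerance 0.001), so reads were recovered for edgeR and DESeq2 as alternatives. How the counting treated reads shared by transcripts is not given.

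Genes with a mean of at least 10 were tested with limma 3.58.1 (trend and robust) on log2(value + 1), R 4.3.3, with 6 group means, two-sided, and called at an adjusted p below 0.05. For genes with low counts, folds computed with this pseudocount come out too small. Alternatives used TMM scaling, edgeR 4.0.16, DESeq2 1.42.0, other filters and pseudocounts, a replicate block, library weights and fits without each library. Data were simulated for the KO late change, with 6952 genes and 100 changed per fold in each of 5 runs. On these, limma recovered 59.4% of 4-fold and 15.0% of 2-fold changes, and 4.86% of its calls were false. The simulation gave each gene the same dispersion in every library and had no broad decline. In the data the KO 8 h replicates differed more than those of the other groups, so these rates may not hold for the comparison reported.

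Named genes were the smallest p or largest calls with a mean of at least 100 in a group compared and no overlap, the 10 highest at KO 4 h, up to 4 members per list by p, and NEXT genes; exceptions are stated. The genes and lists were chosen with earlier results of these data known. Lists were described by counts and medians, with no test. Sequences and structure came from GENCODE M21 on GRCm38, matched by RefSeq accession; no position was converted between builds.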

Additional observations from a re-analysis of the deposited data

How the results depend on the processing

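The direction of the broad decline, but not its size, held on the deposited scale: leaving out each KO library moved the median gene change from -0.55 to -0.37, and TMM scaling moved it to -0.0015. Genes called lower at KO 8 h numbered 2. The count was 0 with TMM scaling, both edgeR fits, DESeq2, no filter, the groups compared only, KO libraries only, and TMM scaling without KO 8 h replicate 2. It was 7 with a mean of at least 30 and 63 with library weights, and ran from 0 to 96 on leaving out 1 library. The highest of these was reached without KO 8 h replicate 1, and omitting either control 0 h library, whose group had the widest spread between replicates, gave 49 or 50. Weights and TMM without that KO library were chosen after seeing the data. Genes called higher numbered 0, or 1 with DESeq2, and 0 to 1 on leaving out a library. For KO minus control, calls higher were 2 with edgeR on the authors' factors, 1 with DESeq2, 4 with the groups compared only and 2 with weights. On leaving out a library they were 0 to 1, and calls lower were 0 to 1. For late minus early change, calls higher (40) were 64 with edgeR on TMM factors, 129 with DESeq2, 85 with a pseudocount of 5, 4 with no filter and 292 with weights, and 5 to 108 on leaving out a library. Calls lower (0) were 1, 5 and 3 with edgeR on TMM factors, DESeq2 and weights, and 0 to 3 on leaving out a library. Replicate numbers were not taken to pair the samples, since the labels do not say so and the correlations of same-numbered deviations between groups ran from -0.07 to 0.12. With the replicate block 26 genes were called lower at KO 8 h (10 of them histone genes), and 93 had a higher late than early change. Signs of 8 abundant RNAs reversed. On TMM, edgeR TMM, DESeq2 and TMM without KO 8 h replicate 2, in that order, Eef1a1 was 0.074, 0.078, 0.070 and 0.21, Hsp90ab1 0.027, 0.030, 0.022 and 0.13, Ybx1 0.36, 0.36, 0.35 and 0.31, and Ptma 0.18, 0.18, 0.17 and 0.28. On leaving out a library Ybx1 ran from -0.26 to 0.039, and was 0.0053 without KO 8 h replicate 1. Actb was 0.0061 with edgeR TMM and 0.23 with TMM without KO 8 h replicate 2, where Col1a1 was 0.15 and Rmrp 0.44. On leaving out a library 4930470H14Rik ran from -0.033, without KO 8 h replicate 2, to 1.24. Over the named genes, 833 other values kept direction and side of the threshold, 60 lost a call and 27 gained one. The causes were not tested. The shallowest KO library used held 601688 reads. On simulated data, which lacked the wide spread of the KO 8 h replicates, the test missed most 2-fold changes.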

Other observations

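Several gene groups not described above held transcripts with their own pattern, given as values. Of 10 tested glycolysis genes, 8 were lower (80%, against 47.7% of all genes) and 1 higher without overlap between KO 4 h and KO 8 h. The median late change was -0.55, but -0.29 in KO 8 h replicate 1 alone and -0.87 in replicate 2 alone. The exception was Pfkm, the muscle-type phosphofructokinase, at 10.7 and 17.4 at 4 h and at 28.0 and 73.0 at 8 h (1.66, adjusted p = 0.308, limma). Its exons overlap Senp1 on the other strand. Hk2, a hexokinase, was at 331 and 408, then at 208 and 160 (-1.01, adjusted p = 0.341). The 13 tested cholesterol synthesis genes had a median of -0.52, with -0.44 and -0.62 in these libraries. The 17 collagen genes had a median of -0.42 in KO, also -0.42 in replicate 1 and -0.41 in replicate 2, and of -0.15 in control. Col1a2 was at 2277 and 2371, then at 1826 and 1251 (-0.62, adjusted p = 0.533). The difference between genotypes over this group was not tested.

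The 50 tested chaperone genes had a median of -0.49, with -0.53 and -0.48 in the 2 KO 8 h libraries. Hspa8, the constitutive Hsc70, was at 2156 and 2250, then at 1179 and 1096 (-0.95, adjusted p = 0.332, limma). Over 7 tested splicing factor and Clk kinase genes the median was -0.50 (-0.69 and -0.52 in the 2 libraries), and over 5 snoRNA host genes -0.48 (-0.52 and -0.50). Gas5, one of these hosts, was at 89.7 and 99.8, then at 79.0 and 66.7 (-0.38, adjusted p = 0.729). Xist, the X inactivation RNA, was at 35.3 and 57.2, then at 51.6 and 102 (0.68, adjusted p = 0.606). Cdca7, Ppan and Hexim1 were chosen after their values were seen, because they were called lower with the replicate block and with library weights but not in the fit reported. Cdca7, a chromatin protein of dividing cells, was at 60.0 and 79.4, then at 19.1 and 10.1 (-2.23, adjusted p = 0.0674). Ppan, a ribosome biogenesis factor, was at 78.5 in both 4 h libraries, then at 21.7 and 20.2 (-1.86, adjusted p = 0.0847). Hexim1, an inhibitor of the kinase P-TEFb, was at 44.8 and 46.5, then at 14.0 and 5.04 (-2.29, adjusted p = 0.0971). In these 3 genes all 8 h values lay below all 4 h values, as in 47.7% of all genes, so the gap is no support for a fall.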
